A study of Mus musculus with 9 samples.

Results

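Imprinted genes of the fetal growth network were read in 3 zones of tibial growth cartilage from newborn mice. The 10 genes considered were H19, Dlk1, Meg3, Peg3, Grb10, Cdkn1c, Plagl1, Mest, Ndn and Zim1, and their members on the array were all probe sets annotated to one of them alone. This gave 35 of 45101 probe sets, for 9 of the 10 genes. The single probe set that carries the name H19 is annotated to Mir675 as well, so H19 has no value here. Of the 35 probe sets 30 lay above the expression filter, and all 9 genes with a probe set were tested among 11313 genes.

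The animals were wild-type Black Swiss mice at birth (age 0 days), from 3 litters of 9 to 10 pups. Round, flat and hypertrophic zones of proximal tibial cartilage were cut by hand out of frozen sections, and each sample pooled 18 to 20 tibiae of 1 litter. The 9 samples are therefore 3 layers from each of 3 litters, with 1 Affymetrix array each, and no group carries a transgene, a mutation or a treatment. Nothing in the protocol isolates chondrocytes from other cells, and precision is limited by the small number of arrays. In such bulk tissue fewer cells of a type and less RNA per cell cannot be told apart.

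Imprinted genes are transcribed mainly from the allele inherited from one parent. Many of them act on growth before birth, as a rule with paternally expressed genes promoting it and maternally expressed genes restraining it, and several form a set of genes whose messages vary together in mouse tissues and decline after birth. Plagl1, a zinc finger factor of this set, is known in the mouse to regulate other members. In the growth plate small round chondrocytes turn into flat cells that divide in columns, then leave the cell cycle and enlarge before bone replaces them. Cdkn1c is known from mouse mutants to be needed for that exit.

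Known cartilage genes served as a check of the layers, and none of those given here was highest in the flat layer. Col2a1, the cartilage collagen, averaged 32059 ± 6936, 21585 ± 6323 and 18514 ± 2424 signal units in the round, flat and hypertrophic layers (SD, n = 3 each), and Acan (aggrecan) averaged 16500 ± 592, 7561 ± 2371 and 7139 ± 432. Sox9, the master factor of cartilage, averaged 1952 ± 103, 678 ± 275 and 316 ± 101. The joint surface gene Prg4 averaged 15342 ± 3014, 385 ± 281 and 199 ± 54.4. Col10a1, the collagen of hypertrophic cells, averaged 139 ± 111, 664 ± 239 and 11857 ± 918, and the collagenase gene Mmp13 averaged 4805 ± 1290, 9881 ± 2097 and 34828 ± 2145. The round array of litter 1 stood apart in RNA integrity, with a 3'/5' ratio of 4.25 for the actin control against 1.45 to 2.06 on the other 8 arrays. The median signal was 123 to 151 over the arrays. The flat array of litter 3 had the highest skeletal muscle signal. Counts without these 2 arrays are given beside the results.

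Sequence upstream of the members is shown first, for 4 that differ in their expression across the layers: Meg3 and its neighbour Dlk1, Peg3, and Grb10, the member that passed the test as higher in the flat layer than in the round one. Each is the 250 bases before a RefSeq start in build GRCm38.p6, read 5′ to 3′ on the gene's strand. The capitals mark 3 motifs searched on both strands, GGGGCCCC (a core element bound by Plagl1), TATAAA (the TATA box) and CCAAT.
Meg3, chr12:109540746-109540995, plus strand: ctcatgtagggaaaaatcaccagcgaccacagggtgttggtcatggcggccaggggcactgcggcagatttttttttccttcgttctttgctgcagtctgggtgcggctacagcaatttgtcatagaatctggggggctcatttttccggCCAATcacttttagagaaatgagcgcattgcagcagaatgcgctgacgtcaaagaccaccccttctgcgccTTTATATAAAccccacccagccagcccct
Dlk1, chr12:109452573-109452822, plus strand: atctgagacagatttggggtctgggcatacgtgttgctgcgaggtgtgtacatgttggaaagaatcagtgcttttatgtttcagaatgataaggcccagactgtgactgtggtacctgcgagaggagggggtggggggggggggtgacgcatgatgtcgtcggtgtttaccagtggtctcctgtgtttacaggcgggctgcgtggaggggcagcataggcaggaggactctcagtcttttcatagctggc
Peg3, chr7:6730420-6730669, minus strand: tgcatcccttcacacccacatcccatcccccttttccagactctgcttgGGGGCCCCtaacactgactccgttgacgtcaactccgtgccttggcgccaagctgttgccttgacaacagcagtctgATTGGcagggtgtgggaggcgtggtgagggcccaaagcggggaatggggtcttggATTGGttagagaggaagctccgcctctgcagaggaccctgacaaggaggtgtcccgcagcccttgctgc
Grb10, chr11:12037421-12037670, minus strand: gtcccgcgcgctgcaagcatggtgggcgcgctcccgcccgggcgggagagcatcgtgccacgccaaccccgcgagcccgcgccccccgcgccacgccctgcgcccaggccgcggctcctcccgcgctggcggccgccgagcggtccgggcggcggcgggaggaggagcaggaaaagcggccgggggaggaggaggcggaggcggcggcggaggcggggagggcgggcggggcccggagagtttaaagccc
The Meg3 window holds 1 match to CCAAT and 2 to TATAAA, 1 on either strand, in overlapping letters just before the start. The Peg3 window holds GGGGCCCC once, beginning at position -201 relative to the start, and 2 matches to CCAAT. The Dlk1 and Grb10 windows hold none of the 3 motifs. The Grb10 window has 40 CpG pairs and a GC content of 81.2%, against a median of 6 pairs and 52.4% over all 32851 windows of this length, which sets it at percentile 98.9 for CpG pairs.

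Across all 12 windows that RefSeq's table gives for 8 members, GGGGCCCC was found in 1, TATAAA in 1 and CCAAT in 2. The shares of all windows with these motifs were 0.889%, 12.4% and 33.8%. The other members' windows had 0 to 19 CpG pairs. A match is only a match of letters, and its absence says only that the letters are not in this window.

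Meg3 and Mest also span microRNA genes on their own strand, which the array does not measure but whose sequences come from the same transcribed regions as the host RNAs described below. The seed (bases 2 to 8) is in capitals in each mature sequence from RefSeq.
mmu-miR-770-5p, within Meg3: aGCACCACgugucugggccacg
mmu-miR-770-3p, within Meg3: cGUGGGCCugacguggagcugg
mmu-miR-335-5p, within Mest: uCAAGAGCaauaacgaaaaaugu
mmu-miR-335-3p, within Mest: uUUUUCAUuauugcuccugacc
The 4 seeds differ from each other. Meg3 also spans mmu-miR-1906, whose sequence is not shown.

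The imprinted genes were lower in the hypertrophic layer. Against the flat layer 8 of the 9 tested members fell and 0 rose, where 5.22% of all tested genes were lower and 6.12% higher. Their median log2 difference was -0.83, against -0.00 over all tested genes. In the hypertrophic against the round layer 7 fell and 0 rose, where 12.7% of all genes were lower and 12.4% higher, with a median of -1.04 against 0.01. The flat and round layers differed for 1 member only, Grb10, which was higher in the flat layer, where 8.39% of all genes were higher and 8.64% lower. The median of the members in that comparison was 0.04, against -0.01 over all genes.

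**Figure D1:**
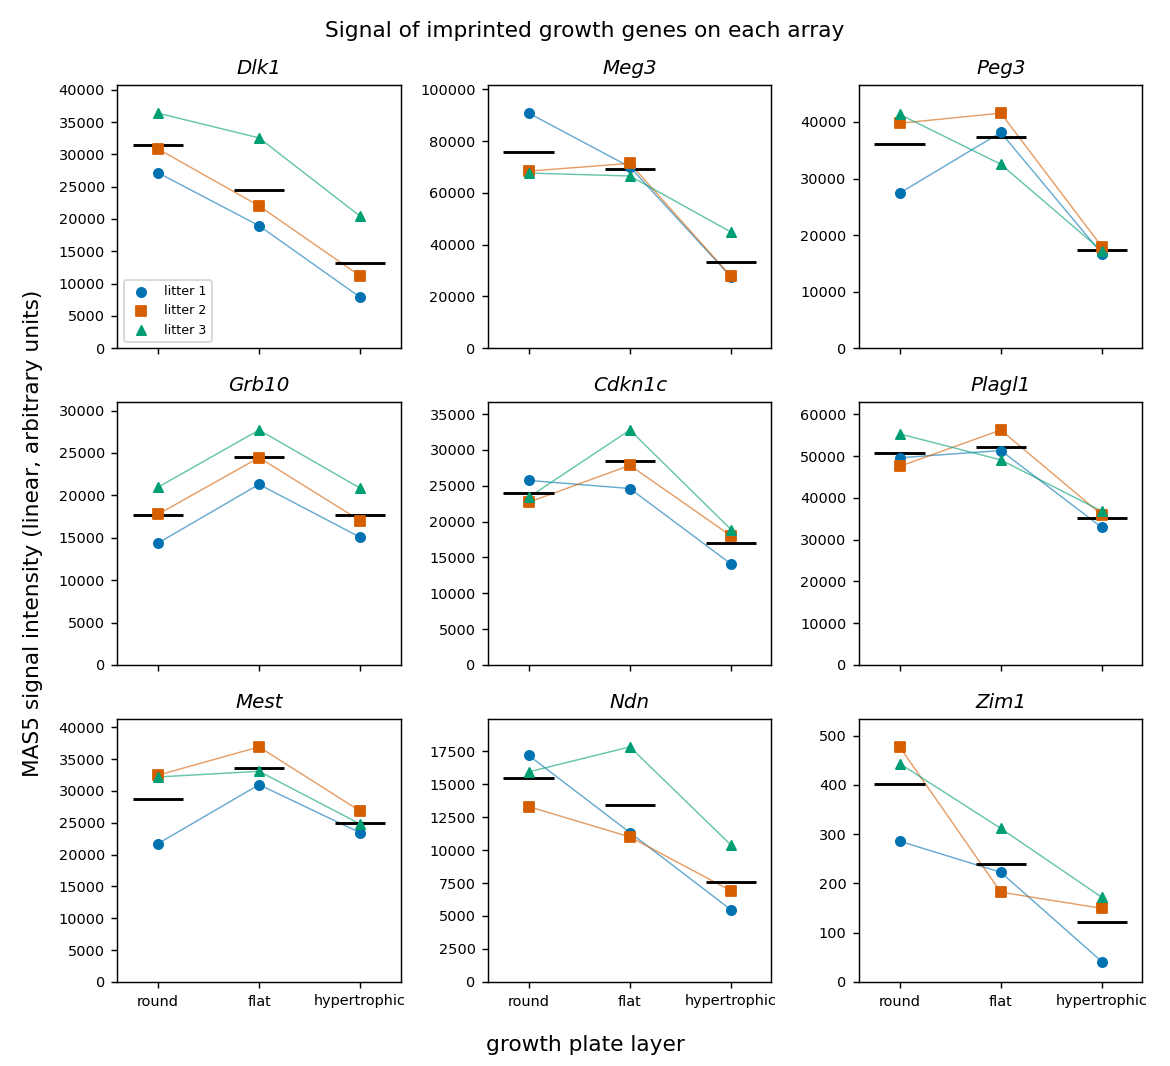
MAS5 signal (linear) of the probe set that stands for each of 9 imprinted genes, by layer, with 1 point for each array, lines joining the arrays of a litter and a black bar at the mean of 3 litters. All panels but Grb10 and Mest have the 3 hypertrophic points below the 3 round points, and in Grb10 the 3 flat points are above all others.

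Meg3 is a long noncoding RNA of the maternal allele. Its signal was 90820, 68404 and 67647 in the round layer, 70007, 71398 and 66523 in the flat layer and 27530, 27685 and 44838 in the hypertrophic layer (litters 1 to 3). All hypertrophic arrays were below all others, with litter 3 the highest of them. Meg3 fell in the hypertrophic layer by 2.13-fold against the flat layer (log2 -1.09 ± 0.18, SE, n = 3 litters, adjusted p = 0.00235) and by 2.31-fold against the round layer (-1.21 ± 0.18, adjusted p = 0.000423). Between the flat and round layers the difference was -0.11 ± 0.18 (adjusted p = 0.73).

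Meg3 has 11 probe sets, all above the filter. In the fit over 22518 probe sets all 11 were lower in the hypertrophic than in the flat layer, by -1.44 to -0.65 on the log2 scale. Against the round layer, 10 of them were lower. The exception was at -0.09 ± 0.18 (adjusted p = 0.773). Its signals were 664, 506 and 1073 in the hypertrophic layer and 958, 494 and 921 in the round layer. The largest difference among them was -2.06 ± 0.13 (adjusted p = 5.52e-07), with signals of 12144, 12277 and 11866 in the hypertrophic layer against 66015, 46125 and 42346 in the round layer. The probe set with the highest mean therefore gives one of the smaller differences of this gene. The probe sets of Meg3 also split between the flat and round layers, where 4 of 11 were lower (-0.87 to -0.59) and the others lay between -0.33 and 0.56 without passing the test.

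Dlk1 encodes a transmembrane protein related to Notch ligands that is shed as a growth and differentiation factor, and it lies next to Meg3 with the paternal allele active. Dlk1 signal was 27156, 30855 and 36389 in the round layer, 18954, 22022 and 32553 in the flat layer and 7870, 11168 and 20419 in the hypertrophic layer. It stepped down along the layers in each litter, and litter 3 was the highest in each layer, so that the hypertrophic array of litter 3 overlapped the flat arrays. Dlk1 fell in the hypertrophic layer by 1.96-fold against the flat layer (-0.97 ± 0.16, adjusted p = 0.00192) and by 2.57-fold against the round layer (-1.36 ± 0.16, adjusted p = 4.81e-05). The flat layer was at -0.39 ± 0.16 relative to the round layer (adjusted p = 0.116). Without the round array of litter 3 that difference was -0.58 with adjusted p = 0.033. The second probe set of Dlk1 was lower against the round layer (-1.12 ± 0.36, adjusted p = 0.0451), while against the flat layer it was at -0.97 ± 0.36 (adjusted p = 0.145).

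Litters were compared in the same fit. In an F test on the litter terms 1 of 9 members passed, where 5.14% of all genes did, with adjusted p = 0.0231 for Dlk1. Its mean log2 values were 13.96, 14.26 and 14.82 in litters 1 to 3. The count was 0 without any one of the 3 hypertrophic arrays, the flat array of litter 1 or the flat array of litter 3. Its neighbours Rian and Mirg, noncoding RNAs of the same maternally expressed unit as Meg3, belong to a second list described below.

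Grb10 is an adaptor that binds the insulin and IGF1 receptors and dampens their signal, with the maternal allele active in most mouse tissues. Its signal was 14369, 17766 and 20955 in the round layer, 21302, 24459 and 27710 in the flat layer and 15056, 17025 and 20849 in the hypertrophic layer. The 3 flat arrays were above the 6 others, and the order of the litters was the same in every layer. Grb10 rose in the flat layer by 1.39-fold against the round layer (0.48 ± 0.11, adjusted p = 0.00954). It fell by 1.39-fold in the hypertrophic layer against the flat layer (-0.48 ± 0.11, adjusted p = 0.0137). The hypertrophic and round layers were at a difference of -0.00 ± 0.11 (adjusted p = 0.998). The flat layer is also where the skeletal muscle markers described below were highest. With their mean score as a covariate the rise was 0.61 with adjusted p = 0.22, and with the perichondrium score it was 0.52 with adjusted p = 0.661. It had adjusted p = 0.126 with no term for litter and 0.07 without the flat array of litter 1. The fall against the flat layer did not pass under 10 of 22 alternatives, among them no filter (adjusted p = 0.0539), no term for litter (0.174) and the muscle score (0.18). Of its 3 probe sets 2 passed as higher in the flat layer than in the round one (0.48 and 1.09), and the third was at 0.64 ± 0.20 (adjusted p = 0.0508). The layers overlapped in the probe set at 1.09, with signals of 172, 807 and 844 (round) and 615, 1219 and 1700 (flat). Its lowest signal, 172, was on the round array of litter 1, the one with high 3'/5' ratios.

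Cdkn1c encodes p57, an inhibitor of cyclin-dependent kinases expressed from the maternal allele. Its signal was 25751, 22713 and 23406 in the round layer, 24623, 27860 and 32787 in the flat layer and 14089, 18012 and 18896 in the hypertrophic layer. The hypertrophic arrays were below all others, while the flat and round arrays overlapped. Cdkn1c fell in the hypertrophic layer by 1.67-fold against the flat layer (-0.74 ± 0.14, adjusted p = 0.00405) and by 1.42-fold against the round layer (-0.50 ± 0.14, adjusted p = 0.0162). The call against the round layer ended under 4 of 22 alternatives. Among them were the fits without the hypertrophic array of litter 1 (-0.40, adjusted p = 0.101) and without that of litter 3 (-0.54, adjusted p = 0.0558). The flat layer was at 0.24 ± 0.14 relative to the round layer (adjusted p = 0.264), and at 0.41 with adjusted p = 0.0252 without the round array of litter 1, the one with high 3'/5' ratios.

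**Figure D2:**
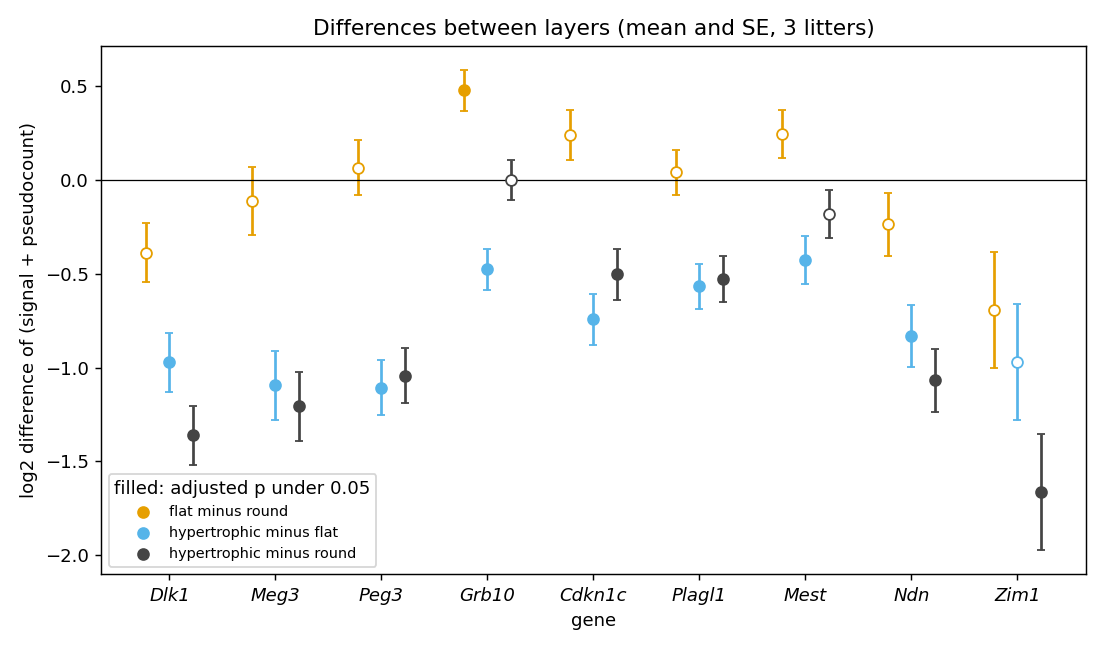
Log2 difference of (signal + 26) with its SE (n = 3 litters) for 9 imprinted genes in 3 comparisons of layers, with filled points for adjusted p under 0.05. The blue and dark points, the hypertrophic layer against the flat and the round layer, lie at or below 0 for all 9 genes, and the one filled orange point is Grb10 (0.48).

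Plagl1, Peg3 and Zim1 encode zinc finger proteins. The signal of Plagl1, paternally expressed, was 49582, 47525 and 55299 in the round layer, 51320, 56224 and 49073 in the flat layer and 32897, 35909 and 36786 in the hypertrophic layer. The hypertrophic arrays were below all others and close to each other. Plagl1 fell there by 1.48-fold against the flat layer (-0.57 ± 0.12, adjusted p = 0.00956) and by 1.44-fold against the round layer (-0.53 ± 0.12, adjusted p = 0.00673). The call against the flat layer ended under 8 of 22 alternatives, among them no filter (adjusted p = 0.0784), the muscle score (0.269) and each hypertrophic array left out (0.0546 to 0.0584). The call against the round layer ended under 3 of 22 alternatives. Among them were no filter (adjusted p = 0.0586) and the fit without the round array of litter 3 (-0.46, adjusted p = 0.0509). The other probe sets of Plagl1, both of lower signal, were at -1.97 ± 0.25 and -1.13 ± 0.27 against the round layer. The 3 probe sets of Plagl1 thus had the same direction and unequal sizes.

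Peg3, also paternally expressed, acts in growth, muscle stem cells and maternal behaviour in the mouse. Its signal was 27415, 39774 and 41356 in the round layer, 38148, 41566 and 32523 in the flat layer and 16683, 17933 and 17193 in the hypertrophic layer. The hypertrophic arrays lay within a narrow band, well below the others. Peg3 fell by 2.15-fold against the flat layer (-1.11 ± 0.15, adjusted p = 0.000554) and by 2.06-fold against the round layer (-1.04 ± 0.15, adjusted p = 0.00024). All 3 of its probe sets above the filter were lower in both comparisons. A further 2 probe sets of Peg3 had signals of 2.46 to 54.2 and were not tested.

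Zim1, the maternally expressed neighbour of Peg3, had a signal of 286, 477 and 444 in the round layer, 223, 182 and 312 in the flat layer and 41.0, 149 and 172 in the hypertrophic layer. The layers stepped down in all 3 litters, with the round and flat arrays overlapping. Zim1 fell by 3.17-fold in the hypertrophic layer against the round layer (-1.66 ± 0.31, adjusted p = 0.00184), with the widest error of the 9 genes. It passed in neither adjacent comparison, at -0.97 ± 0.31 for the hypertrophic against the flat layer (adjusted p = 0.0653) and -0.69 ± 0.31 for the flat against the round layer (adjusted p = 0.155). It has 1 probe set, near the expression filter, where the pseudocount of 26 shrinks a fold change. Its mean log2 value was 7.05 in the hypertrophic layer, below the filter of 7.21. It passed the filter through the round (8.71) and flat (8.02) layers.

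Ndn encodes necdin, a MAGE family protein that restrains proliferation, and is paternally expressed. Its signal was 17178, 13296 and 15935 in the round layer, 11329, 10998 and 17829 in the flat layer and 5467, 6912 and 10376 in the hypertrophic layer. The hypertrophic arrays were below all others, that of litter 3 by a small margin. Ndn fell by 1.78-fold against the flat layer (-0.83 ± 0.17, adjusted p = 0.00733) and by 2.10-fold against the round layer (-1.07 ± 0.17, adjusted p = 0.000537). All 5 of its probe sets above the filter were lower in both comparisons, at -0.89 to -0.73 and -1.07 to -0.76. Another 3 probe sets of Ndn were below the filter.

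Mest encodes a protein of the hydrolase family and is paternally expressed. Its signal was 21704, 32461 and 32180 in the round layer, 30973, 36906 and 33073 in the flat layer and 23416, 26825 and 24795 in the hypertrophic layer. The hypertrophic arrays were below the flat arrays and overlapped the round arrays. Mest was 1.34-fold lower in the hypertrophic than in the flat layer (-0.43 ± 0.13) with adjusted p = 0.0496, a call that ended under 18 of 22 alternatives, with adjusted p up to 0.999. Against the round layer it was at -0.18 ± 0.13 (adjusted p = 0.334). That difference passed under 2 of 22 alternatives, with adjusted p down to 0.0162. Both left out the round array of litter 1, whose 21704 lay below every hypertrophic signal. Of the 9 genes Mest was the only one that did not differ between the layers in the F test (adjusted p = 0.06), which 8 members and 28.4% of all genes passed.

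**Figure D3:**
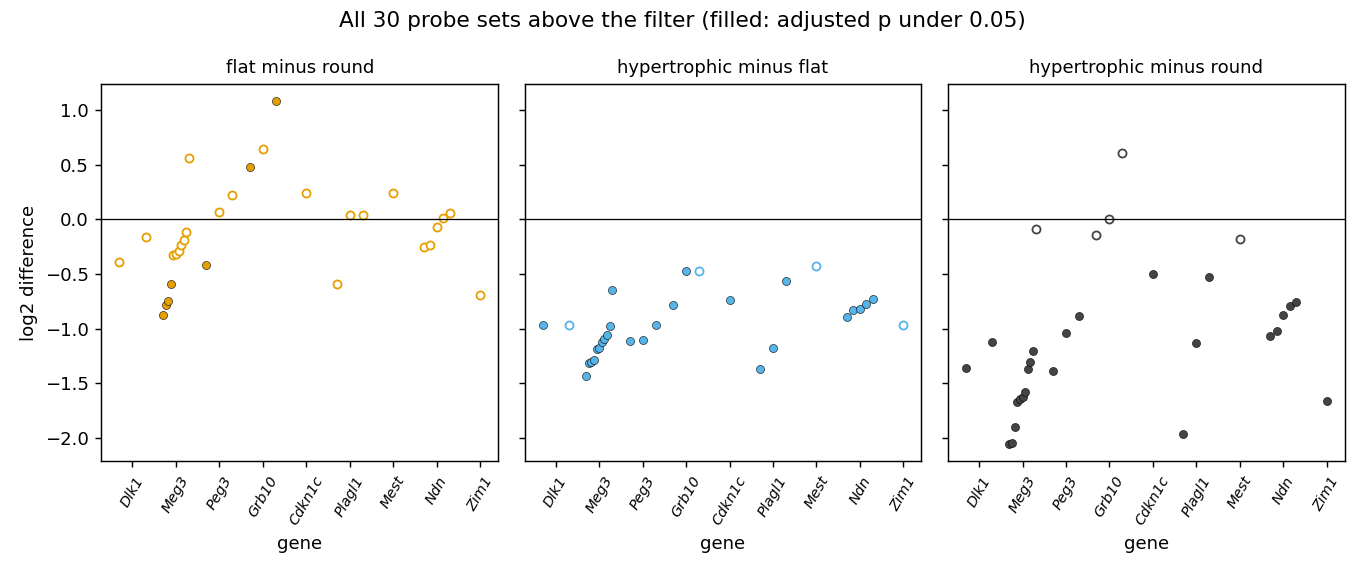
Log2 difference of each of the 30 probe sets above the filter, by gene, in 3 comparisons of layers, with filled points for adjusted p under 0.05. In the hypertrophic against the flat layer all 30 points are below 0, and in the hypertrophic against the round layer the one point above 0 belongs to Grb10 (0.61).

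Over all probe sets of these genes, 26 of 30 were lower in the hypertrophic than in the flat layer and 0 higher, where 7.47% of all probe sets differed. Relative to the round layer 25 were lower and 0 higher, where 20.4% differed. Between the flat and round layers 2 were higher and 5 lower, where 12.5% differed. Probe sets of 1 gene share their transcript, and Meg3 alone gave 11 of the 30. The 3 arrays of the layers did not overlap in 8 of 9 genes for the hypertrophic against the flat layer, in 7 for the hypertrophic against the round layer and in 1 for the flat against the round layer. Over all tested genes the shares without overlap were 22.7%, 36.5% and 25.3%.

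Members expressed from either parental allele were among those that fell. Of the 4 tested genes known as maternally expressed (Meg3, Grb10, Cdkn1c and Zim1) 3 were lower in the hypertrophic than in the flat layer, with a median of -0.86. All 5 known as paternally expressed (Dlk1, Peg3, Plagl1, Mest and Ndn) were lower, with a median of -0.83. Of all tested genes 5.22% were lower in that comparison. For the round layer the counts were 3 of 4 and 4 of 5, with medians of -0.85 and -1.04, where 12.7% of all genes were lower. No allele was measured here.

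Markers of other tissues also differed between the layers. All 18 skeletal muscle markers were higher in the flat layer than in the round one (median 1.37), led by Actn2 (1.98 ± 0.25) and Neb (1.92 ± 0.19), and 17 were lower in the hypertrophic than in the flat layer (median -1.08), led by Myh8 (-1.44 ± 0.30) and Ryr1 (-1.32 ± 0.24). In the hypertrophic against the round layer 2 were higher and 0 lower (median 0.29). These were Neb (0.72 ± 0.19, adjusted p = 0.0158) and Myog (0.65 ± 0.20, adjusted p = 0.0365), the second named after its value was seen, while Actn2 was at 0.68 ± 0.25 (adjusted p = 0.063). In that comparison 7 members were lower, for a cause that was not tested, and 0 of the muscle markers were lower. Their summed signal ranged over 155922 to 255605, 366578 to 599970 and 154648 to 368160 in the round, flat and hypertrophic layers, and 0 of the 18 were at 0. With the mean of these markers as a covariate 7 of 9 members were lower in the hypertrophic than in the round layer, where 25.3% of all genes passed. For the hypertrophic against the flat layer 1 member, Peg3, passed with that covariate (-1.59, adjusted p = 0.00746), where 1.36% of all genes did. For the flat against the round layer, where 3.31% of all genes passed with that covariate, Grb10 did not pass and Ndn was lower (-1.26, adjusted p = 0.0262).

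Of 17 tested perichondrium, fibroblast and tendon markers 9 were lower and 0 higher in the hypertrophic than in the flat layer (median -0.87), led by Col14a1 (-1.62 ± 0.13) and Tnmd (-1.59 ± 0.19). Compared with the round layer 9 were lower and 1 higher (median -0.45), led by Dpt (-3.83 ± 0.28) and Thbs4 (-3.30 ± 0.20). Between the flat and round layers 6 were lower and 2 higher (median -0.06), led by the same pair, Dpt (-2.54 ± 0.28) and Thbs4 (-1.82 ± 0.20). Their summed signal was 407988 to 503512, 328996 to 481201 and 305878 to 340857 in the round, flat and hypertrophic layers, and 0 of 18 were at 0. With their mean as a covariate 0 genes in all passed in either hypertrophic comparison, so the part of this tissue in the members' differences cannot be told apart from the layer. Osteoblast, osteoclast and endothelial markers were higher in the hypertrophic than in the flat layer (5 of 7, 8 of 9 and 6 of 12, and 0 lower), macrophage markers split (3 higher and 1 lower of 10), and 0 of 4 tested adipocyte and 0 of 2 tested erythroid markers passed by limma. Both erythroid markers were higher in the hypertrophic layer relative to the round one. Their part in the result was not tested.

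**Figure D4:**
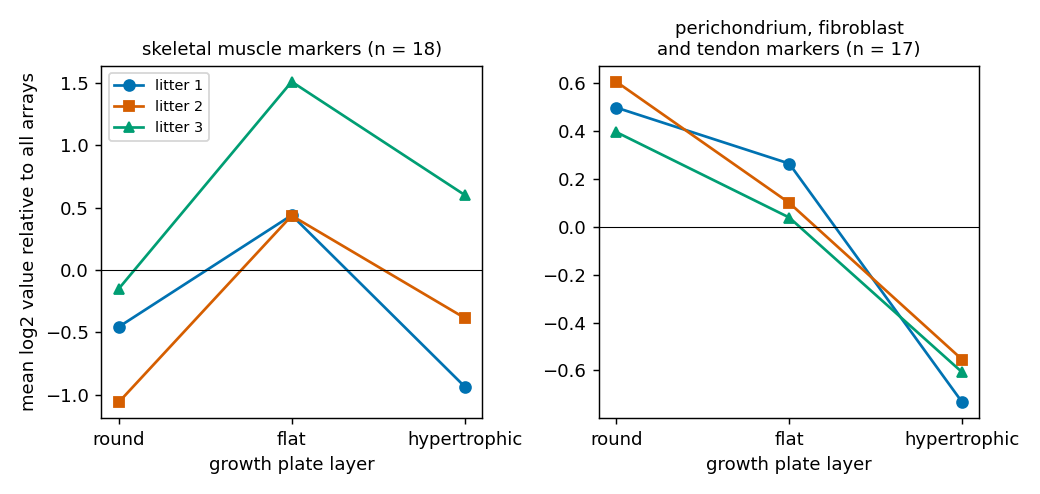
Mean log2 value of 18 skeletal muscle markers (left) and 17 perichondrium, fibroblast and tendon markers (right) on each array relative to the mean of all arrays, with 1 line per litter. The muscle markers peak in the flat layer, highest in litter 3 (1.51), and the perichondrium markers are lowest in the hypertrophic layer (-0.73 to -0.55).

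Counts of members were repeated without single arrays. With both arrays that stand apart left out (round, litter 1, and flat, litter 3), 8 members were lower in the hypertrophic than in the flat layer and 8 in the hypertrophic than in the round layer, and 2 were higher in the flat layer than in the round one. The shares of all genes called in those fits were 14.2%, 28.4% and 14.6%. Leaving out 1 array at a time gave 4 to 8, 6 to 8 and 0 to 2 members, in that order of comparisons, where 5.22% to 14.7%, 15.6% to 25.8% and 10.8% to 17.3% of all genes were called. The lowest count, 4 for the hypertrophic against the flat layer, came without the hypertrophic array of litter 1 (5.22% of all genes), and it was 5 without the hypertrophic array of litter 2, the hypertrophic array of litter 3 or the flat array of litter 1. With no term for litter 4 members were lower in the hypertrophic than in the flat layer, where 4.89% of all genes were called.

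The other genes of the imprinted network gave a more mixed picture. All 9 were tested. Of these 5 were lower and 0 higher in the hypertrophic than in the flat layer, with a median of -0.49: Igf2, Gatm, Gnas, Sgce and Ppp1r9a. Over all tested genes 5.22% were lower and 6.12% higher in that comparison. Igf2, the fetal growth factor whose gene lies next to H19, had signals of 40968, 45293 and 43410 in the hypertrophic layer, against 62390, 68008 and 52851 in the flat layer (-0.49 ± 0.12, adjusted p = 0.0228), and the layers did not overlap. Against the round layer, at 54802, 53291 and 56238, it was at -0.34 ± 0.12 (adjusted p = 0.0627). Gnas, the stimulatory G protein alpha subunit that relays the parathyroid hormone receptor, fell against the flat layer (-0.50 ± 0.12) and the round layer (-0.43 ± 0.12). Sgce, epsilon-sarcoglycan, was at -0.65 ± 0.14 and -0.69 ± 0.14, and Ppp1r9a, neurabin, at -0.80 ± 0.15 and -0.97 ± 0.15. These 3 genes had adjusted p from 0.00047 to 0.0204.

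The remaining network genes did otherwise. Gatm, an enzyme of creatine synthesis, rose in the flat against the round layer (1.62 ± 0.18, adjusted p = 7.97e-05) and fell in the hypertrophic against the flat layer (-1.12 ± 0.18). Its flat signals were 1420, 1351 and 4115, highest in litter 3 as for the muscle score (0.44, 0.44 and 1.51), whose part in these values was not tested. Slc38a4, an amino acid transporter, rose in the flat (0.86 ± 0.13) and hypertrophic (0.41 ± 0.13, adjusted p = 0.0434) layers against the round layer. The matrix proteoglycan gene Dcn rose in the hypertrophic against the round layer (0.46 ± 0.14, adjusted p = 0.0272). Igf2r, the receptor that clears Igf2, was at -0.06 ± 0.17 and -0.17 ± 0.17 in the hypertrophic against the flat and round layers, and Nnat, a small membrane protein, was at -0.42 ± 0.30 and -0.16 ± 0.30, with adjusted p from 0.444 to 0.895 for this pair. Of the 9 network genes 3 were lower and 2 higher in the hypertrophic against the round layer, where 12.7% and 12.4% of all genes were. In the flat against the round layer 0 were lower and 2 higher, where 8.64% and 8.39% of all genes were.

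**Figure D5:**
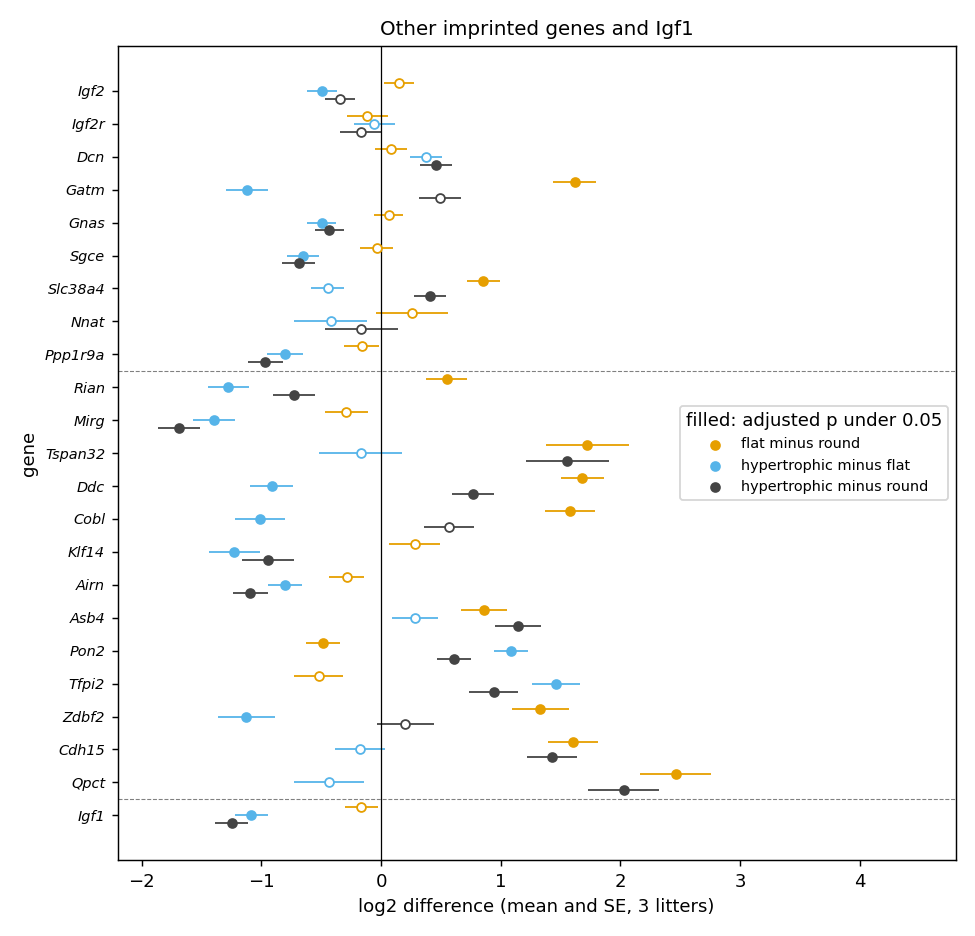
Log2 difference with its SE (n = 3 litters) of the other network genes (above the first dashed line), further imprinted genes or neighbours named by their size of change, and Igf1 (below the second line), with filled points for adjusted p under 0.05. Mirg reaches -1.69 in the hypertrophic against the round layer, while Qpct reaches 2.46 in the flat against the round layer.

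Neighbours in the imprinted clusters of the members were listed too, 27 genes of which 17 were tested. Relative to the flat layer the hypertrophic layer had 7 lower and 0 higher (median -0.42), where 5.22% and 6.12% of all genes were. Rian and Mirg, from the cluster of Dlk1 and Meg3, were among the 7 that were lower. Rian had signals of 1514, 2031 and 4214 in the hypertrophic layer, against 4189, 5094 and 8818 in the flat layer (-1.28 ± 0.17, adjusted p = 0.000614). Mirg, a host of many microRNAs, had 1065, 1101 and 2063 in the hypertrophic layer, against 3100, 2878 and 5136 in the flat layer (-1.40 ± 0.18, adjusted p = 0.000377). Rian and Mirg fell against the round layer as well (-0.73 ± 0.17 and -1.69 ± 0.18), and Rian rose in the flat against the round layer (0.55 ± 0.17, adjusted p = 0.0468). For both RNAs litter 3 was the highest in the flat and hypertrophic layers, as for Dlk1.

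The genes on either side of Grb10 peaked in the flat layer. Ddc, a decarboxylase of amine synthesis, had signals of 1447, 1698 and 4470 in the flat layer, against 581, 582 and 911 in the round layer (1.68 ± 0.18, adjusted p = 6.33e-05). Cobl, an actin nucleator, had 878, 965 and 2063 in the flat layer, against 418, 261 and 529 in the round layer (1.57 ± 0.21, adjusted p = 0.000275). Both fell in the hypertrophic against the flat layer (-0.91 ± 0.18 and -1.01 ± 0.21). Both were highest on the flat array of litter 3, where the muscle score was also highest, and the part of muscle in these values was not tested. Klf14, a Krüppel-like factor near Mest, fell in the hypertrophic against the flat (-1.23 ± 0.21) and round (-0.95 ± 0.21) layers. Tspan32 rose in the flat against the round layer (1.72 ± 0.35), from round signals of 55.2, 39.5 and 80.1, below the filter. It passed the filter through the other layers, with 340, 209 and 210 in the flat and 234, 296 and 145 in the hypertrophic layer.

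Of 16 further imprinted genes tested, 3 were higher and 2 lower in the hypertrophic than in the flat layer (median 0.06). Against the round layer 5 were higher and 1 lower (median 0.27). Over all tested genes 6.12% were higher and 5.22% lower in the first comparison, and 12.4% and 12.7% in the second. Airn, the noncoding RNA antisense to Igf2r, fell in the hypertrophic layer against the flat (-0.80 ± 0.15) and round (-1.09 ± 0.15) layers. Zdbf2 rose in the flat against the round layer (1.33 ± 0.24) and fell in the hypertrophic against the flat layer (-1.13 ± 0.24). Its flat signals, 1499, 1944 and 4292, were also highest in litter 3 with the muscle score, and the part of muscle was not tested. Upward in the hypertrophic against the flat layer were the paraoxonase Pon2 (1.09 ± 0.14) and the protease inhibitor Tfpi2 (1.46 ± 0.20). Asb4 (1.14 ± 0.19), Qpct (2.03 ± 0.30) and Cdh15, the muscle cadherin (1.43 ± 0.21), rose in the hypertrophic against the round layer. Each also rose in the flat against the round layer (adjusted p = 0.000141 to 0.00808). None passed between the hypertrophic and flat layers (adjusted p = 0.417 to 0.679), and Qpct and Cdh15 had their highest means in the flat layer. The round signals of Qpct were 43.1, 147 and 197, the first below the filter. Cdh15 had flat signals of 629, 564 and 1483, highest in litter 3 with the muscle score, and the part of muscle was not tested.

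The receptor pathway that Grb10 acts on had calls in both directions. Of 11 tested IGF and insulin receptor pathway genes 1 was higher and 2 lower in the hypertrophic than in the flat layer. Against the round layer 2 were higher and 3 lower. In the flat against the round layer 1 was higher and 1 lower. Over all tested genes 11.3%, 25.1% and 17.0% differed in these comparisons, in that order. Igf1, the growth hormone dependent factor, had the largest difference of the hypertrophic layer in this list, at -1.08 ± 0.14 against the flat layer (adjusted p = 0.000431) and -1.25 ± 0.14 against the round layer (adjusted p = 3.7e-05).

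Genes with the profile closest to each member were found by the root mean square difference of centred log2 values over the 9 arrays, among 11304 tested genes that are not members. For Plagl1 these were Gnas (0.07), Igf2 (0.10) and Rlim (0.10), so the nearest 2 were imprinted network genes. For Ndn they were Ebf2 (0.15), Ppp1r9a (0.16), again of the network list, and Tenm4 (0.17). Dlk1 was nearest to Tenm4 (0.20), Gprasp1 (0.20) and Sorbs2 (0.21), Meg3 to Col9a3 (0.16), P4htm (0.18) and Npff (0.19), and Peg3 to Lama3 (0.16), Spice1 (0.17) and Fbln2 (0.18). Grb10 was nearest to Pfn2 (0.07), Siva1 (0.10) and Hadh (0.10), Cdkn1c to 2310075K07Rik (0.12), Inha (0.13) and G0s2 (0.14), and Zim1 to Agtr2 (0.26), Abhd14b (0.30) and Gprasp2 (0.30). These distances are to be read beside the members' own spread over the arrays, which was 0.27 for Plagl1, 0.30 for Grb10 and 0.83 for Zim1. The arrays share their layers and litters, so closeness is a description. Among the members themselves Dlk1 and Ndn were nearest to each other (0.23), as were Cdkn1c and Plagl1 (0.18) and Grb10 and Mest (0.18).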

How the data were processed

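The deposited table holds MAS5 signal intensities on a linear scale for 45101 probe sets on 9 arrays, made by the authors with Affymetrix Expression Console and MAS5, as named in the submitters' processing notes (versions of both not given in the sources consulted). Trimming 2% of values at either end gives a mean of 500.003 on every array. Probe sets were named through the platform's annotation, and 64 controls, 932 probe sets of several genes and 9160 without a gene were set aside, leaving 34945 probe sets of 18193 genes.

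Signals were transformed as log2(signal + 26), with the pseudocount at the 20th percentile of all values. Where several probe sets named a gene alone, the brightest on average represented it. Genes were tested if their mean exceeded 7.21 (a signal of about 122), the median over all probe sets but controls. Layers were compared with limma 3.58.1 (R 4.3.3), with litter as a fixed block and the variance prior allowed to follow mean signal (4 residual and 8.15 prior degrees of freedom). P was adjusted by Benjamini-Hochberg over all tested genes of a comparison, with a threshold of 0.05, and rose, fell, higher and lower as counts refer to it. A second fit ran over 22518 probe sets. Only the gene fit was tested on simulated data.

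The replicate numbers mark litters in the labels. After removal of layer means, same-litter arrays had correlations over genes of 0.167 to 0.517 in 9 pairs, against -0.434 to 0.0815 in 18 pairs of different litters. Members and gene lists were chosen with earlier results of these data known. All 10 members and 9 network genes are named, other imprinted and IGF genes when past the threshold with a log2 difference of at least 1, the 2 largest differences of the muscle and perichondrium lists (other cell type lists by counts only), and 3 nearest genes for each member that passed the F test. Alternatives covered the pseudocount, filter, scaling, choice of probe set, litter term, variance trend, tissue scores and each array left out.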

Additional observations from a re-analysis of the deposited data

How the results depend on the processing

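Of 351 recalculations of the 16 differences that passed, 287 kept direction and call, 59 kept only direction and 5 reversed, all 5 with the perichondrium score. The count of members in the hypertrophic against the flat layer was 8; it became 5 with no filter, 4 with no replicate block, 1 with the muscle score and 0 with the perichondrium score, and 4 to 8 without 1 array. The count for the flat against the round layer was 1; it became 0 with no replicate block, 0 with the perichondrium score, 1 with the muscle score but Ndn lower in place of Grb10 higher, 2 without both doubtful arrays (round, litter 1, and flat, litter 3), and 0 to 2 without 1 array. The counts for the hypertrophic against the round layer (7) and for any layer (8) became 0 with the perichondrium score, under which 0 of all genes passed in either hypertrophic comparison. The replicate block changed the counts of all genes too: without it 553 in place of 1283 differed between the hypertrophic and flat layers, 935 in place of 1926 between the flat and round layers and 1824 in place of 2840 between the hypertrophic and round layers. Median centring split the calls of all genes as 737 higher and 1118 lower for the flat against the round layer, in place of 949 and 977, and as 838 and 448 for the hypertrophic against the flat layer, in place of 692 and 591.

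Probe sets of members passing in the flat against the round layer (7) became 1 with no replicate block, 3 with no variance trend, 4 with the muscle score, 0 with the perichondrium score and 2 to 8 without 1 array. In the hypertrophic against the flat layer (26) they became 14 with no replicate block, 15 with no variance trend, 7 with the muscle score, 0 with the perichondrium score and 17 to 27 without 1 array. In the hypertrophic against the round layer (25) they became 0 with the perichondrium score. Members differing between litters (1) became 2 with the filter at the 75th percentile, with quantile normalization, with median centring and without the 2 arrays, 0 with the mean of all probe sets, no variance trend or the muscle score, and 0 to 2 without 1 array.

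Reversals, by log2 difference, were these. With the perichondrium score Dlk1, Meg3, Ndn and Zim1 were at 0.15, 0.31, 0.13 and 0.71 for the flat against the round layer. With it the hypertrophic layer had Dlk1 at 0.17 and Zim1 at 1.96 against the flat layer, and Dlk1, Meg3, Grb10, Ndn and Zim1 at 0.32, 0.0869, 0.13, 0.0821 and 2.67 against the round layer. The other reversals were of differences that did not pass. For the flat against the round layer Plagl1 was at -0.088 with quantile normalization, -0.0187 with median centring, -0.17 with the mean of all probe sets and -0.0116 with the muscle score, Peg3 at -0.0468 with quantile normalization, Cdkn1c at -0.41 with the muscle score and Meg3 at 0.29 without the 2 arrays. For the hypertrophic against the round layer Grb10 was at 0.0213 with quantile normalization, 0.0121 with median centring, 0.16 with the mean of all probe sets and 0.0297 with the muscle score. Without 1 array the flat against the round layer gave Meg3 at -0.288 to 0.0819, Peg3 at -0.12 to 0.223 and Plagl1 at -0.0416 to 0.131, and the hypertrophic against the round layer gave Grb10 at -0.0400 to 0.0259. The cause was not tested.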
